A study of Mus musculus with 6 samples.

Results

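The 10 genes described here encode the cyclins and cyclin-dependent kinases (Cdks) that carry a mammalian cell from G1 to mitosis: Ccnd1, Ccnd2, Ccnd3, Ccne1, Ccne2, Ccna2, Cdk1, Cdk2, Cdk4 and Cdk6. They were chosen by name, and all 10 were found among the 17558 genes of the table and were among the 12643 genes tested. RNA was sequenced from C2C12 cells, an immortalized mouse myoblast line that leaves the cell cycle and fuses into myotubes in low serum. All 6 libraries came from cells kept for 48 h in differentiation medium with horse serum and an insulin, transferrin and selenium supplement. The 3 groups of 2 libraries each were cells stably carrying a scrambled short hairpin (shScr, genotype given as WT), cells with a hairpin against the Pkm1 splice isoform of pyruvate kinase (shPkm1, Pkm1 Knockdown) and cells labelled as carrying one against Pkm2 (shPkm2, Pkm2 Knockdown). Nothing in the labels says whether the 2 libraries of a group came from separate cultures, so p-values measure the spread between these libraries, which may be technical.

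A cyclin is the regulatory subunit that switches on its Cdk. D cyclins with Cdk4 or Cdk6 begin the inactivation of the retinoblastoma protein in G1, E cyclins with Cdk2 complete it at the entry to S phase, cyclin A with Cdk2 and then Cdk1 acts in S and G2, and cyclin B with Cdk1 drives mitosis. Differentiating myoblasts stop dividing, and cyclin D3 is known as the D cyclin that stays high in muscle cells after they have stopped, while cyclin D1 falls.

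Each library held between 18216896 and 19796036 estimated counts. Levels are given as counts-per-million (CPM) after TMM scaling, which corrects the library size for composition, and between genes as deposited transcripts-per-million (TPM), which allow for transcript length. Pkm itself was at 3019 and 3473 CPM in the shScr libraries, 1998 and 2186 in shPkm1 and 3658 and 3794 in the shPkm2-labelled libraries. In edgeR's quasi-likelihood test, Pkm was lower in shPkm1 than in shScr (log2 fold change -0.63, adjusted p = 0.00107). That call was lost with limma on log2(TPM + 1) (-0.24, adjusted p = 0.124). Against shScr, the shPkm2-labelled libraries had no call (0.20, adjusted p = 0.198), but limma on log2(TPM + 1) called them higher (0.66, adjusted p = 0.000666). The edgeR test called them higher than shPkm1 (0.83, adjusted p = 0.000159). The Pkm1 transcript was at 546 and 589 TPM in shScr, 243 and 218 in shPkm1, and 254 and 254 in the shPkm2-labelled libraries. The Pkm2 transcript was at 1073 and 1517 TPM in shScr, 1278 and 1379 in shPkm1, and 2700 and 2630 in the shPkm2-labelled libraries, so the isoform named in that label was not lower there. Every direction given below for this group is therefore that of the libraries so labelled. All 12 muscle markers examined were detected in every library, and their summed level was 22979 to 28862 TPM in shScr, 12165 to 13060 in shPkm1 and 1407 to 1499 in the shPkm2-labelled libraries. Of these 12 markers 11 were lower in shPkm1 than in shScr, beside 31.4% of all tested genes. In the shPkm2-labelled libraries 11 were lower, beside 34.2%, while the myoblast factor Myf5 was higher there (log2 fold change 1.74). Markers of other mesenchymal cells were mixed, and their part in the results was not tested. The adipocyte markers Adipoq and Plin1 and the fibroblast marker Thy1 were at 0 or 1 count, and the adipocyte marker Cfd and the osteoblast marker Ibsp at 0, in all 6 libraries. Of the 6 fibroblast markers 4 were tested, and 3 were called higher in shPkm1, beside 31.8% of all tested genes. These were Pdgfra (2.30), the scarce Dpt (3.26, at 0.824 and 0.226 CPM in shScr) and Col14a1 (4.99, from 0.634 and 0.847 CPM in shScr to 22.7 and 25.1). Pdgfra was also higher in the shPkm2-labelled libraries (2.46), while Ly6a was lower in both groups (-0.62 and -0.97) and, at 223 to 372 TPM, made up nearly all of the fibroblast sum of 332 to 374 TPM in shScr, 296 to 346 in shPkm1 and 234 to 276 in the shPkm2-labelled libraries. Of the other lists, Lpl was higher in the shPkm2-labelled libraries (1.73), Pparg in shPkm1 (0.88) and Runx2 in both hairpin groups (1.26 and 1.27), while Bglap2 was lower in both (-2.56 and -2.57). The adipocyte list (6 genes) summed to 6.85 to 9.34, 12.04 to 12.15 and 30.1 to 33.1 TPM, most of it Lpl. The osteoblast list (6 genes) summed to 43.8 to 52.6, 24.4 to 28.5 and 24.6 to 27.2 TPM, with Bglap2 the highest in shScr and Runx2 in the hairpin groups. The control libraries stood further apart than the replicates of the other groups. The chi-square per degree of freedom between them was 30.8, against 5.94 in shPkm1 and 6.66 in the shPkm2-labelled libraries. The tests below shared an estimate of spread over all groups, so they did not allow for a wider spread in shScr.

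Ccnd1, Ccne2, Ccna2 and Cdk6 were higher in both hairpin groups than in the control, while Ccnd3 and Cdk2 were lower in both, Ccnd2 was lower in shPkm1 and, less firmly, in the shPkm2-labelled libraries, and Ccne1, Cdk1 and Cdk4 were higher in the shPkm2-labelled libraries. In the shPkm2-labelled libraries against shScr, edgeR's quasi-likelihood test (adjusted p under 0.05 after Benjamini-Hochberg adjustment over all tested genes) called 7 members higher, beside 33.9% of all tested genes, and 3 lower, beside 34.2%. It called 68.0% of all tested genes in either direction, so a call by itself was common. The median log2 fold change of the 10 members was 1.34, beside 0.01 over all tested genes. In shPkm1 against shScr, 4 members were higher (beside 31.8% of all genes), 3 were lower (beside 31.4%) and 3 had no call. In that comparison 63.1% of all genes were called in either direction, and the median was -0.08, with that of all genes near 0. In the direct comparison of the shPkm2-labelled libraries with shPkm1, 8 members were higher (beside 25.7% of all genes), 1 was lower (beside 27.3%) and 1 had no call. There 53.0% of all genes were called in either direction, and the median was 0.95, with that of all genes near 0. The libraries of the groups compared did not overlap for 8 of 10 members in shPkm1 against shScr (beside 81.0% of all genes) and for 10 of 10 in each of the other comparisons (beside 83.9% and 79.8%). Of the calls over all genes, 49.8% were higher in the shPkm2-labelled libraries against shScr, 50.3% in shPkm1 against shScr and 48.4% in the direct comparison. With library totals in place of TMM these shares were 69.3%, 65.8% and 61.3%, and the median of all genes lay 0.32, 0.19 and 0.13 higher, so fold changes here are relative to the TMM scale. With limma on log2(TPM + 1) the shares were 75.7%, 78.1% and 53.8%. Both comparisons against shScr use the same 2 control libraries, so their values are given side by side and are not independent. In bulk RNA, fewer cells that still cycle and less of a transcript in each cell cannot be told apart. The summed muscle markers given above differed between all 3 groups. Markers of other mesenchymal cells were mixed: Pdgfra and Runx2 were higher in both hairpin groups, while Ly6a and Bglap2 were lower in both. Between the hairpin groups Pdgfra and Runx2 had no call (log2 fold changes 0.16 and 0.01, adjusted p = 0.287 and 0.953). The part of all these markers in the results was not tested.

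**Figure D1:**
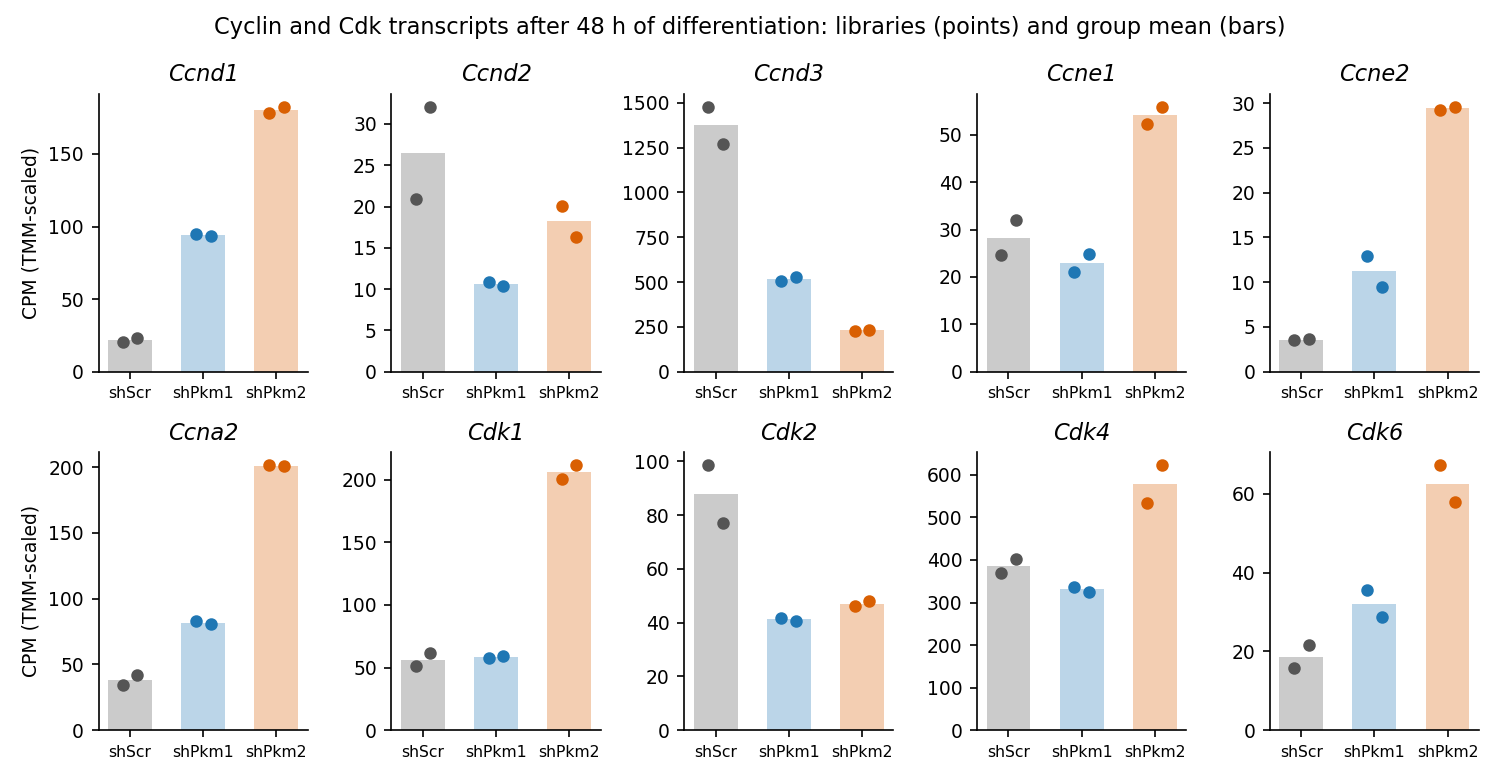
CPM (linear axes from 0, a scale for each gene) of the 10 genes in the 3 groups, with each library as a point and the mean of a group as a bar. Ccnd1, Ccne2, Ccna2 and Cdk6 step up from shScr through shPkm1 to the shPkm2-labelled libraries, Ccnd3 steps down, Ccne1, Cdk1 and Cdk4 stand out only in the shPkm2-labelled libraries, and Cdk2 is low in both hairpin groups.

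Ccnd1, Ccne2, Ccna2 and Cdk6 were higher in shPkm1 than in shScr and higher again in the shPkm2-labelled libraries, with all 3 comparisons called, and Ccnd3 was lower by the same steps. Ccne1, Cdk1 and Cdk4 had no call in shPkm1 but were higher in the shPkm2-labelled libraries than in either other group. Cdk2 was lower in both hairpin groups, with no call between them. Ccnd2 was lowest in shPkm1, and its fall in the shPkm2-labelled libraries lost its call in 5 of 15 alternatives.

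**Figure D2:**
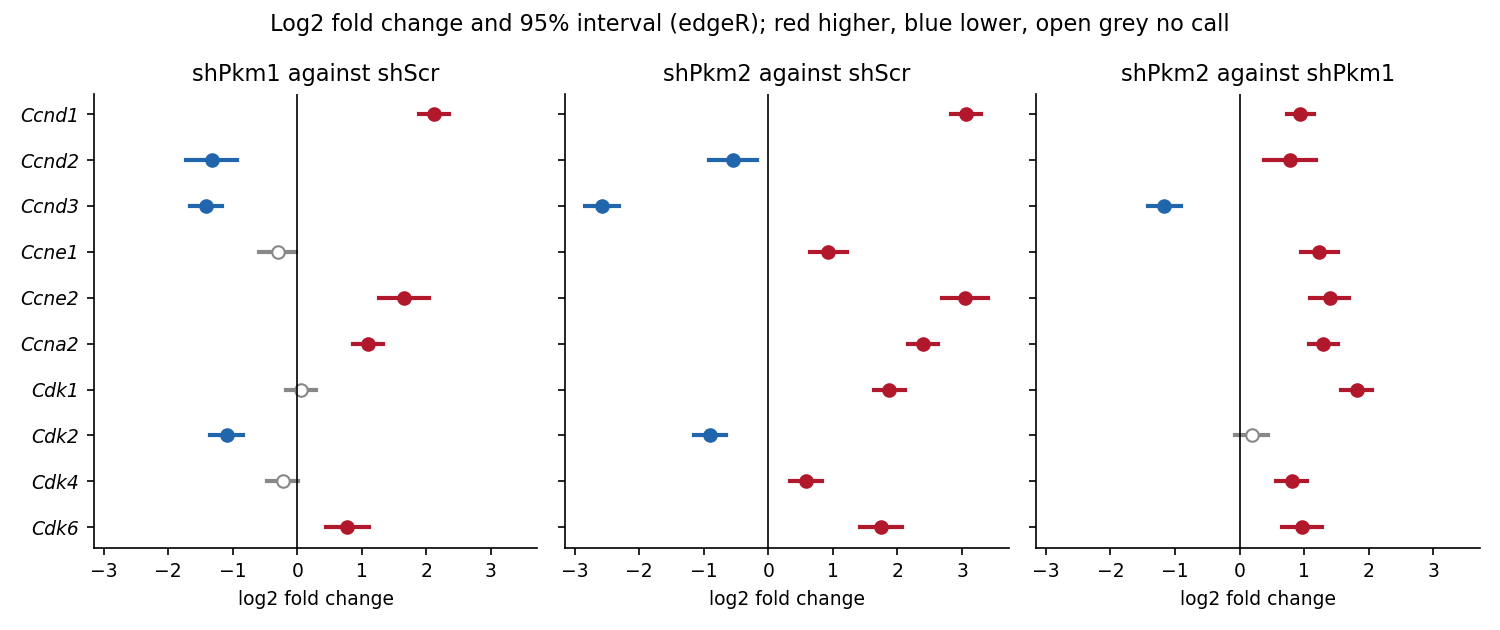
Log2 fold change (x axis) of each gene in the 3 comparisons with its 95% interval from the edgeR fit, filled red where called higher, filled blue where called lower and open grey where not called. The interval of Cdk1 lies around 0 in shPkm1 (-0.18 to 0.30) and well above 0 in the shPkm2-labelled libraries (1.64 to 2.11).

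Among the D cyclins, the partners of Cdk4 and Cdk6, Ccnd1 and Ccnd3 moved in opposite directions. Ccnd1 (NCBI gene 12443, chromosome 7, 144929931 to 144939831 in GRCm38.p6) was at 20.3 and 22.9 CPM in shScr, 94.5 and 93.6 in shPkm1 and 178 and 183 in the shPkm2-labelled libraries. The 3 groups did not overlap. Ccnd1 was 4.34-fold higher in shPkm1 (log2 fold change 2.12, SE 0.106, adjusted p = 3.93e-09) and 8.33-fold higher in the shPkm2-labelled libraries (log2 fold change 3.06, SE 0.107, adjusted p = 5.13e-11). Between the hairpin groups the difference was smaller (log2 fold change 0.94, SE 0.0960, adjusted p = 2.78e-06).

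Ccnd3 (gene 12445, chromosome 17, 47505051 to 47599689), the D cyclin of differentiated muscle, was at 1477 and 1272 CPM in shScr, 504 and 528 in shPkm1 and 228 and 233 in the shPkm2-labelled libraries. Both control libraries lay above all 4 hairpin libraries. Ccnd3 was 2.66-fold lower in shPkm1 (log2 fold change -1.41, SE 0.116, adjusted p = 3.55e-07), 5.97-fold lower in the shPkm2-labelled libraries (log2 fold change -2.58, SE 0.121, adjusted p = 7.85e-10), and lower in the latter than in the former (log2 fold change -1.16, SE 0.116, adjusted p = 2.20e-06).

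Ccnd2 (gene 12444, chromosome 6, 127125162 to 127152188) had the lowest TPM of the D cyclins in every library and was at 20.9 and 32.1 CPM in shScr, 10.9 and 10.4 in shPkm1 and 20.1 and 16.3 in the shPkm2-labelled libraries. The control libraries were further apart than those of either hairpin group. Ccnd2 was 2.50-fold lower in shPkm1 (log2 fold change -1.32, SE 0.183, adjusted p = 3.72e-05), and higher in the shPkm2-labelled libraries than in shPkm1 (log2 fold change 0.78, SE 0.185, adjusted p = 0.00308). The fall in shPkm1 kept its call on log2(TPM + 1) with limma but was smaller (-0.73, adjusted p = 0.00883). The fall in the shPkm2-labelled libraries (log2 fold change -0.55, SE 0.174, adjusted p = 0.0132) was not called without shScr replicate 2 (-0.20) or without shPkm2 replicate 2 (-0.40). It was also not called with library totals in place of TMM (-0.23, adjusted p = 0.302). With limma it was not called on log2(TPM + 1) (-0.06, adjusted p = 0.817) or on log2(TPM + 0.1) (-0.06, adjusted p = 0.837).

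By TPM the summed D cyclin transcripts of shScr came to 1033 ± 7.98 (SD, n = 2), those of shPkm1 to 557 ± 12.9 and those of the shPkm2-labelled libraries to 334 ± 11.2. Ccnd3 made up 98.6% ± 0.365 of this sum in shScr, 91.3% ± 0.230 in shPkm1 and 71.3% ± 0.0596 in the shPkm2-labelled libraries. Ccnd1 made up 0.770% ± 0.136, 8.08% ± 0.196 and 27.0% ± 0.324, and Ccnd2 0.599% ± 0.229, 0.578% ± 0.0336 and 1.72% ± 0.264. The shares of Ccnd1 and Ccnd3 did not overlap between any of the groups. These shares were not tested. An exact test on 2 and 2 libraries would reach p = 0.333 at the lowest.

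**Figure D3:**
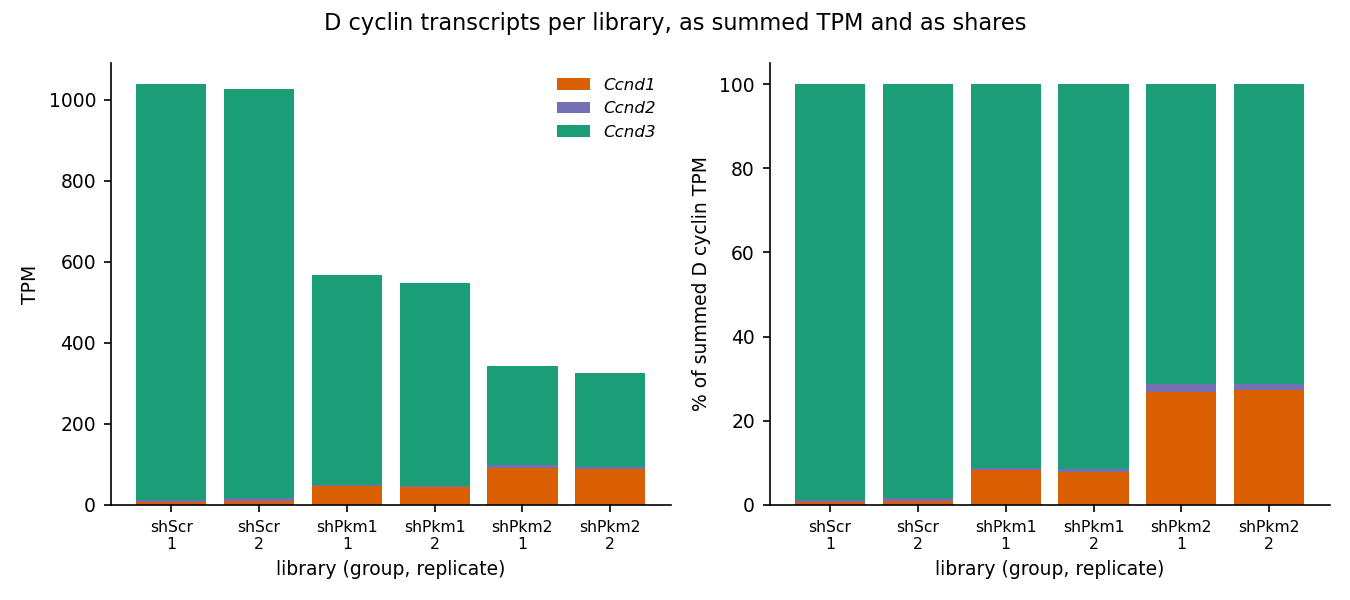
Stacked bars of Ccnd1, Ccnd2 and Ccnd3 in each of the 6 libraries, as TPM (left) and as a percentage of the summed D cyclin TPM (right). The stack shrinks from shScr to the shPkm2-labelled libraries while the Ccnd1 part grows from 0.770% to 27.0% of it on average.

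Of the E cyclins, which activate Cdk2, Ccne2 was called higher in shPkm1 and Ccne1 was not; the difference between these genes was not tested. Ccne1 (gene 12447, chromosome 7, 38097984 to 38107490) was at 24.7 and 31.9 CPM in shScr, 21.0 and 24.9 in shPkm1 and 52.2 and 55.9 in the shPkm2-labelled libraries. The shScr and shPkm1 libraries overlapped, with no call after adjustment (log2 fold change -0.30, unadjusted 95% interval -0.60 to -0.01, adjusted p = 0.0644). The libraries labelled shPkm2 lay above both, 1.91-fold higher than shScr (log2 fold change 0.93, SE 0.130, adjusted p = 2.90e-05) and 2.35-fold higher than shPkm1 (log2 fold change 1.24, SE 0.131, adjusted p = 3.95e-06). In shPkm1 the result for Ccne1 changed with the setting: it was called lower without shScr replicate 1 (-0.47, adjusted p = 0.00101) and was 0.089 on log2(TPM + 1) with limma (adjusted p = 0.641).

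Ccne2 (gene 12448, chromosome 4, 11190433 to 11204779) had the lowest counts of the members in the control libraries, 55 and 64. Its level was 3.49 and 3.62 CPM in shScr, 12.9 and 9.51 in shPkm1 and 29.2 and 29.6 in the shPkm2-labelled libraries, with no overlap between groups. Ccne2 was 3.14-fold higher in shPkm1 (log2 fold change 1.65, SE 0.180, adjusted p = 4.56e-06) and 8.26-fold higher in the shPkm2-labelled libraries (log2 fold change 3.05, SE 0.168, adjusted p = 3.70e-09), with a further step between the hairpin groups (log2 fold change 1.39, SE 0.142, adjusted p = 2.70e-06). By TPM, Ccne2 made up 7.82% ± 0.868 (SD, n = 2) of the summed E cyclins in shScr, 24.3% ± 6.64 in shPkm1 and 26.3% ± 0.480 in the shPkm2-labelled libraries, so Ccne1 was the more abundant E cyclin in every group.

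Ccna2 (gene 12428, chromosome 3, 36564865 to 36573038), the cyclin of S phase and G2, was at 34.7 and 41.6 CPM in shScr, 82.9 and 80.8 in shPkm1 and 202 and 201 in the shPkm2-labelled libraries. The groups did not overlap, and the libraries of each hairpin group were close to one another. Ccna2 was 2.14-fold higher in shPkm1 (log2 fold change 1.10, SE 0.109, adjusted p = 1.91e-06) and 5.27-fold higher in the shPkm2-labelled libraries (log2 fold change 2.40, SE 0.110, adjusted p = 6.51e-10). The direct comparison was also called (log2 fold change 1.30, SE 0.104, adjusted p = 2.76e-07).

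Of the G1 kinases, Cdk4 (gene 12567, chromosome 10, 127063535 to 127067288) had a far higher TPM than Cdk6 (gene 12571, chromosome 5, 3341004 to 3531008). Cdk4 was at 369.6 and 402 CPM in shScr, 337 and 324 in shPkm1 and 534 and 623 in the shPkm2-labelled libraries. The libraries of the 3 groups did not overlap, but the small difference between shPkm1 and shScr had no call (log2 fold change -0.22, 95% interval -0.46 to 0.02, adjusted p = 0.0981). Its sign was the opposite on log2(TPM + 1) with limma (0.17, adjusted p = 0.234), and without shScr replicate 1 it was called lower (-0.28, adjusted p = 0.0270). In the shPkm2-labelled libraries, Cdk4 was 1.50-fold higher than in shScr (log2 fold change 0.58, SE 0.112, adjusted p = 0.000419) and 1.75-fold higher than in shPkm1 (log2 fold change 0.81, SE 0.112, adjusted p = 4.58e-05). The rise over shScr was 0.91 with library totals in place of TMM and 1.03 with limma on log2(TPM + 1).

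Cdk6 was at 15.8 and 21.5 CPM in shScr, 35.6 and 28.6 in shPkm1 and 67.3 and 58.0 in the shPkm2-labelled libraries, with no overlap. It was 1.71-fold higher in shPkm1 (log2 fold change 0.78, SE 0.155, adjusted p = 0.000711), 3.35-fold higher in the shPkm2-labelled libraries (log2 fold change 1.74, SE 0.152, adjusted p = 3.41e-07) and 1.95-fold higher in the latter than in the former (log2 fold change 0.97, SE 0.144, adjusted p = 8.59e-05). Its share of the summed Cdk4 and Cdk6 TPM nevertheless stayed low, at 0.530% in shScr, 1.06% in shPkm1 and 1.20% in the shPkm2-labelled libraries on average.

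Cdk2 (gene 12566, chromosome 10, 128697938 to 128705051), the partner of cyclins E and A, was the only Cdk of the 4 that was called lower. It was at 98.5 and 77.2 CPM in shScr, 41.8 and 40.7 in shPkm1 and 46.0 and 47.9 in the shPkm2-labelled libraries. The control libraries lay above all others and were further apart than the libraries of either hairpin group. Cdk2 was 2.13-fold lower in shPkm1 (log2 fold change -1.09, SE 0.118, adjusted p = 4.34e-06) and 1.87-fold lower in the shPkm2-labelled libraries (log2 fold change -0.90, SE 0.117, adjusted p = 1.43e-05). Between the hairpin groups no difference was called (log2 fold change 0.19, 95% interval -0.07 to 0.44, adjusted p = 0.204), although with library totals in place of TMM it was (0.32, adjusted p = 0.0292). Both falls kept their call but were smaller on log2(TPM + 1) with limma, at -0.67 and -0.47.

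Cdk1 (gene 12534, chromosome 10, 69335146 to 69352912), the kinase of mitosis, was at 50.8 and 61.4 CPM in shScr, 58.0 and 59.2 in shPkm1 and 200.5 and 212 in the shPkm2-labelled libraries. The shPkm1 libraries lay between the control libraries, and the shPkm2-labelled libraries lay above all of them. No difference was called in shPkm1 (log2 fold change 0.06, 95% interval -0.18 to 0.30, adjusted p = 0.650), though on log2(TPM + 1) with limma it was (0.44, adjusted p = 0.0127). Cdk1 was 3.67-fold higher in the shPkm2-labelled libraries than in shScr (log2 fold change 1.87, SE 0.110, adjusted p = 6.71e-09) and 3.52-fold higher than in shPkm1 (log2 fold change 1.81, SE 0.109, adjusted p = 1.71e-08). In shPkm1, Ccna2 was called higher and its partner Cdk1 was not, a difference that was not tested.

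The order of the members by TPM changed between groups. In shScr the mean of Ccnd3 was 1018 TPM, followed by Cdk4 (416), Cdk2 (57.5), Cdk1 (27.6), Ccne1 (20.7), Ccna2 (19.1), Ccnd1 (7.95), Ccnd2 (6.18), Cdk6 (2.24) and Ccne2 (1.73). Of these neighbours Cdk1, Ccne1 and Ccna2 overlapped in turn, as did Ccnd1 with Ccnd2 and Cdk6 with Ccne2. In shPkm1 the order was Ccnd3 (509), Cdk4 (466), Ccna2 (53.4), Ccnd1 (45.0), Cdk1 (37.6), Cdk2 (35.8), Ccne1 (21.7), Ccne2 (6.98), Cdk6 (5.03) and Ccnd2 (3.22), with overlap between Cdk1 and Cdk2 and between Ccne2 and Cdk6. In the shPkm2-labelled libraries, Cdk4 stood first (849.6), ahead of Ccnd3 (238), Cdk1 (138), Ccna2 (137), Ccnd1 (90.3), Ccne1 (53.7), Cdk2 (41.1), Ccne2 (19.2), Cdk6 (10.2) and Ccnd2 (5.76), and among neighbours Cdk1 and Ccna2 overlapped.

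Set against their kinases, the D cyclins stood lower in the hairpin groups and the E and A cyclins higher. The summed D cyclin TPM was 2.77 and 2.22 times that of Cdk4 plus Cdk6 in the shScr libraries, 1.15 and 1.22 times in shPkm1, and 0.417 and 0.363 times in the shPkm2-labelled libraries. The summed E cyclin TPM was 0.306 and 0.482 times that of Cdk2 in shScr, 0.775 and 0.835 times in shPkm1, and 1.76 and 1.78 times in the shPkm2-labelled libraries. Neither ratio overlapped between groups. Ccna2 was at 0.195 and 0.253 times the sum of Cdk1 and Cdk2 in shScr, 0.736 and 0.719 times in shPkm1, and 0.787 and 0.746 times in the shPkm2-labelled libraries, so the hairpin groups lay above the control. These are ratios of transcripts, with no test, and say nothing of protein or of kinase activity.

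RefSeq promoter entries on GRCm38.p6, covering 250 bases before and 50 after an annotated start, matched 6 of the 10 members (Ccnd3, Ccne1, Cdk1, Cdk2, Cdk4 and Cdk6, with 7 windows in all). The 250 bases before the start are shown for Cdk1 and Cdk2, since these kinases went in opposite directions in the shPkm2-labelled libraries, and for Ccnd3, the member with the highest control level and the largest fall, at the start next to that of its main transcript. They are the reference sequence, 5′ to 3′ on the strand of the gene, and capitals mark matches on either strand to the E2F-type motifs TTTCGCGC, TTTGGCGC, TTTCCCGC and TTTGCCGC, to the CHR-type motifs TTTGAA and CTTGAA (a cell-cycle element), and to CCAAT.
Cdk1, chr10:69352913-69353162, minus strand: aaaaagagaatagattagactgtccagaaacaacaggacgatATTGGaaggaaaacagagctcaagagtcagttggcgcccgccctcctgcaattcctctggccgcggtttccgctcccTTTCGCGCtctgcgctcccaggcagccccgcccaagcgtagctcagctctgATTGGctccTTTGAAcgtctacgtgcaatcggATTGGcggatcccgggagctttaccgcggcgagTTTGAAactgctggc
Cdk2, chr10:128705052-128705301, minus strand: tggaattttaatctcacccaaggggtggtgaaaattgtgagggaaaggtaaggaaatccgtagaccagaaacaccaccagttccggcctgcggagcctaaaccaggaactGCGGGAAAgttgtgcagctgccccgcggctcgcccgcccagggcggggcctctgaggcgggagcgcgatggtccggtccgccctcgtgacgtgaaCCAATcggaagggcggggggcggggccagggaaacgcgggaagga
Ccnd3, chr17:47593217-47593466, plus strand: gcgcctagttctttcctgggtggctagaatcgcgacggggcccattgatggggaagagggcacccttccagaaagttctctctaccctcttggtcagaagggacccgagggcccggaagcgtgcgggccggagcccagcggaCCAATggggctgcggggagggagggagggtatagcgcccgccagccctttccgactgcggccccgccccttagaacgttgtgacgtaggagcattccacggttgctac

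The Cdk1 window held 1 E2F-type match (TTTCGCGC, from -131 to -124 counted from the start), 2 CHR-type matches (TTTGAA, the nearer from -15 to -10), 3 CCAAT matches, all on the opposite strand, and 2 GC boxes (GGGCGG, not capitalised). The Cdk2 window held 1 E2F-type match (TTTCCCGC on the opposite strand, from -140 to -133), 1 CCAAT match and 6 GC boxes, and no CHR-type match. The Ccnd3 window shown held 1 CCAAT match and 2 GC boxes. The windows of Ccne1 and Cdk4 held 4 and 3 GC boxes and none of the other motifs, and that of Cdk6 held none of the motifs searched. Of 32851 windows in the RefSeq table, 2.26% held an E2F-type match, 28.2% a CHR-type match, 37.4% CCAAT, 35.7% a GC box, and 0.435% both an E2F-type and a CHR-type match as in Cdk1. Counts cover the whole windows, including the bases after the start, and both strands. Matches did not overlap in the windows of Cdk1, Cdk2 and Ccnd3, and 2 of the GC boxes of Cdk4 shared a base. A match describes the letters only; Cdk1, which was higher in the shPkm2-labelled libraries, and Cdk2, which was lower, both held an E2F-type match.

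Ccne1, Cdk1 and Cdk6 had 1 transcript each in the table. The main transcript took 84.3% to 92.6% of the Ccnd1 counts, 67.4% to 83.8% of those of Ccnd3 and 56.9% to 74.2% of those of Cdk2 across libraries. In Ccnd2, XM_006505460.1 took 67.8% and 67.1% of the counts in shScr and 46.9% and 40.3% in shPkm1. It took 58.7% and 59.3% in the shPkm2-labelled libraries. In the same order, NM_009829.3 took 32.2% and 27.9%, 53.1% and 41.9%, and 37.0% and 30.0%. In shPkm1 these transcripts were close, at 95.6 and 82.5 estimated counts for XM_006505460.1 and 108 and 85.8 for NM_009829.3. The remaining transcript, XM_006505459.2, took 0% and 17.9% in the shPkm1 replicates. No change of the leading Ccnd2 transcript is therefore described. In Ccne2, which had 7 transcripts, the transcript with the largest summed count took from 18.9% to 91.1%, and the replicates of shScr themselves stood at 77.6% and 18.9%, and no isoform of Ccne2 is described. Strand was not stated for these libraries, and 6 members overlap another protein-coding gene of the annotation: Ccnd1 with LTO1 (818 bases), Ccnd3 with Bysl (359 bases), Ccne2 with Ints8 (5622 bases), Ccna2 with Exosc9 (863 bases), Cdk2 with Pmel (7114 bases) and Cdk4 with Tspan31 (2 bases). Reads in the shared stretches cannot be assigned by strand. Pmel had at most 5 counts in any library, and Ints8, the largest such neighbour of the scarce Ccne2, had 670 to 1122 counts. LTO1 had 206 to 313, Exosc9 364 to 552 and Tspan31 1637 to 2214. Bysl had 1070 to 2025 counts and, like Ccnd3, was highest in the shScr libraries.

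The search for similar profiles covered 10716 other genes averaging 50 counts or more, with predicted and clone names left out. For each member, the most similar genes were those with the smallest root mean square difference of centred log2 CPM over the 6 libraries. They are a description over 6 libraries in 3 groups. Ccna2 was nearest to Spc25, Sgo1 and Top2a, genes of kinetochore function, chromatid cohesion and DNA untangling (differences of 0.0424, 0.0493 and 0.0668). Ccne2 was nearest to Cip2a, Hmmr and Polq, and Cdk1 to Mmd, Wee1, which encodes its inhibitory kinase, and Hrob. Ccnd1 was nearest to the tissue factor gene F3, Cd24a and Diaph3, Ccnd2 to Vash1, Sema6a and Igfbp5, and Ccnd3 to Anxa11 (0.0453), Fbxo17 and Mief2. Ccne1 was nearest to Npc2, Marcksl1 and Utp20, Cdk2 to Midn, Jpt1 and Atp6v1d, Cdk4 to Impa1, D10Wsu102e and Umps, and Cdk6 to Phip, Msh6 and Arhgef39. Among the members themselves the nearest were Ccne1 and Cdk4 (0.223), Ccnd1 and Ccne2 (0.261), and Ccna2 and Cdk6 (0.287), and the farthest apart were Ccnd1 and Ccnd3 (2.32).

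The B cyclins, which bind Cdk1 after cyclin A, and Ccnf, which encodes an F-box subunit of a ubiquitin ligase, were higher in both hairpin groups. Of 5 listed genes 3 were tested (Ccna1 had 0 counts and Ccnb3 at most 2), and Ccnb1, Ccnb2 and Ccnf were called higher in all 3 comparisons, beside 31.8%, 33.9% and 25.7% of all genes called higher in shPkm1, in the shPkm2-labelled libraries and in the direct comparison. Ccnb1 was at 20.1 and 25.5 CPM in shScr, 38.5 and 42.5 in shPkm1 and 122 and 121 in the shPkm2-labelled libraries, with no overlap. Its log2 fold change was 0.83 in shPkm1 and 2.41 in the shPkm2-labelled libraries, where that of Cdk1 was 0.06 and 1.87. The rise of Ccnf in shPkm1 (0.36) was not called without shScr replicate 1 (0.18, adjusted p = 0.172), shPkm1 replicate 1 (0.37, adjusted p = 0.0901) or shPkm1 replicate 2 (0.36, adjusted p = 0.0886). The rise of Ccnb2 in shPkm1 (log2 fold change 0.52, SE 0.154, adjusted p = 0.0101) was not called without shScr replicate 1 (0.26, adjusted p = 0.0685) or without shPkm1 replicate 1 (0.51, adjusted p = 0.0680).

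Of 11 genes that switch Cdks on or off or bind them as small subunits, 5 were higher and 2 lower in shPkm1, and 7 were higher and 2 lower in the shPkm2-labelled libraries, with medians of 0.15 and 1.10. Over all genes 31.8% were higher and 31.4% lower in shPkm1, and 33.9% and 34.2% in the shPkm2-labelled libraries. The phosphatase gene Cdc25c, which activates Cdk1, was at 3.87 and 3.90 CPM in shScr, 6.39 and 8.29 in shPkm1 and 24.0 and 23.5 in the shPkm2-labelled libraries (log2 fold change 2.61, SE 0.161, adjusted p = 1.12e-08). Wee1, which restrains Cdk1, was higher as well, and only the shPkm2-labelled libraries stood apart (10.5 and 12.3, 11.1 and 11.8, and 41.0 and 38.1 CPM; log2 fold change 1.79, SE 0.120, adjusted p = 4.84e-08 against shPkm1). Genes for an activator and for an inhibitor of Cdk1 were thus both called higher in the shPkm2-labelled libraries. In shPkm1 the largest rises were those of Pkmyt1 (1.05), an inhibitory kinase, and Cks2 (1.04), a small Cdk-binding subunit. Cks2 was 2.05 in the shPkm2-labelled libraries. The genes called lower were Cdc37 (-0.38) and Cdc25b (-0.35) in shPkm1 and Cdc37 (-0.34) and Cdk7 (-0.31) in the shPkm2-labelled libraries, each with limits. The fall of Cdk7 kept its call in 6 of 15 alternatives: its sign turned with library totals in place of TMM (0.016) and with limma (0.118 and 0.135), and the call was lost with DESeq2 (adjusted p = 0.0664), with only the groups compared (0.0503), and without shScr replicate 1 (0.0543), shPkm1 replicate 1 (0.0524), shPkm1 replicate 2 (0.0519) or shPkm2 replicate 1 (0.354). The fall of Cdc25b in shPkm1 lost its call with library totals (-0.15, adjusted p = 0.213) and without shPkm1 replicate 2 (-0.33, adjusted p = 0.0527), and its sign turned with limma on log2(TPM + 1) (0.044). Cdc37, a co-chaperone that delivers Cdk4 to Hsp90, was near 0 with limma on log2(TPM + 1) in both comparisons, at 0.0062 and 0.10. Its calls were also lost with library totals (adjusted p = 0.158 in shPkm1 and 0.916 in the shPkm2-labelled libraries), without shPkm1 replicate 1 (0.142) and without shPkm2 replicate 2 (0.106) respectively. Cdk7 and its cyclin Ccnh were also lower in the shPkm2-labelled libraries than in shPkm1 (-0.46 and -0.34), where 7 of the 11 genes were higher and these 2 lower, beside 25.7% and 27.3% of all genes. The call of Ccnh was lost in 8 of 15 alternatives, among them DESeq2 (adjusted p = 0.0769), library totals (0.162) and leaving out any 1 hairpin library (0.0637 to 0.196). That of Cdk7 against shPkm1 was lost in 4, with limma at either pseudocount (adjusted p = 0.0757 and 0.0825), without shPkm1 replicate 1 (0.0655) and without shPkm2 replicate 1 (0.101).

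Of 13 genes of cyclin turnover, 5 were higher and 4 lower in each hairpin group against shScr, with medians of -0.06 and 0.22, and 4 were higher and 1 lower in the direct comparison. The counts against shScr are near the shares of all genes (31.8% higher and 31.4% lower in shPkm1, 33.9% and 34.2% in the shPkm2-labelled libraries), and those over all genes in the direct comparison were 25.7% and 27.3%. Fbxo5, an inhibitor of the anaphase-promoting complex, was at 5.77 and 6.67 CPM in shScr, 16.0 and 15.7 in shPkm1 and 50.4 and 46.0 in the shPkm2-labelled libraries, with log2 fold changes of 1.35 and 2.95 against shScr. Cdc20, which activates that complex in mitosis, was called only where the shPkm2-labelled libraries took part (2.29 against shScr and 2.22 against shPkm1). The ubiquitin ligase subunit gene Cul1 was higher in shPkm1 (0.77) and in the shPkm2-labelled libraries (0.54, or 0.98 with limma on log2(TPM + 1)), with no call between them (-0.23, adjusted p = 0.0780). Usp2, a deubiquitinase known to act on cyclin D1, was at 56.9 and 44.3 CPM in shScr, 19.9 and 18.3 in shPkm1 and 3.01 and 2.91 in the shPkm2-labelled libraries, and so ran opposite to Ccnd1. Its log2 fold changes were -1.41, -4.09 and, between the hairpin groups, -2.68. Fbxo31, an F-box gene also known for cyclin D1 turnover, was lower in both hairpin groups (-1.20 and -1.07), and with limma on log2(TPM + 1) both falls were called but smaller (-0.75 and -0.57).

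Of 10 listed Cdk inhibitors and retinoblastoma family genes 8 were tested, and Cdkn2a and Cdkn2b were not found by name among the genes with values. In shPkm1, 3 were higher and 2 lower; in the shPkm2-labelled libraries, 4 were higher and 3 lower; and between the hairpin groups, 4 were higher and 4 lower. In shPkm1 this is near the 63.1% of all genes that were called, and the shares over all genes were 68.0% and 53.0% in the other comparisons. Cdkn1a, the p21 inhibitor that rises when myoblasts leave the cell cycle, was at 4080.0 and 3679 CPM in shScr, 2149 and 2047 in shPkm1 and 263 and 290.2 in the shPkm2-labelled libraries. It fell in shPkm1 (log2 fold change -0.89, SE 0.127, adjusted p = 4.82e-05) and further in the shPkm2-labelled libraries (log2 fold change -3.81, SE 0.141, adjusted p = 8.40e-11), with the former fall smaller with limma on log2(TPM + 1) (-0.49). Cdkn1b, the p27 inhibitor, was lower in shPkm1 (-0.62, or -0.41 without shScr replicate 1), with the call lost with limma on log2(TPM + 1) (-0.21, adjusted p = 0.135). Cdkn1c, the p57 inhibitor, was at 17.2 and 6.61 CPM in shScr, 61.1 and 58.4 in shPkm1 and 0.377 and 0.143 in the shPkm2-labelled libraries, higher in the former hairpin group and lower in the latter. Rb1, the retinoblastoma gene itself, was at 103 and 87.6 CPM in shScr, 91.3 and 81.0 in shPkm1 and 39.4 and 39.4 in the shPkm2-labelled libraries, where it was lower (log2 fold change -1.27, SE 0.110, adjusted p = 3.22e-07), also with limma on log2(TPM + 1) (-0.76, adjusted p = 0.000141). Its relative Rbl1 went the other way, at 11.1 and 9.10, 22.1 and 22.2, and 40.3 and 39.1 CPM, with log2 fold changes of 1.14, 1.98 and 0.84. The Cdk4 and Cdk6 inhibitor gene Cdkn2c was higher in the shPkm2-labelled libraries (0.82 against shScr and 0.73 against shPkm1).

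**Figure D4:**
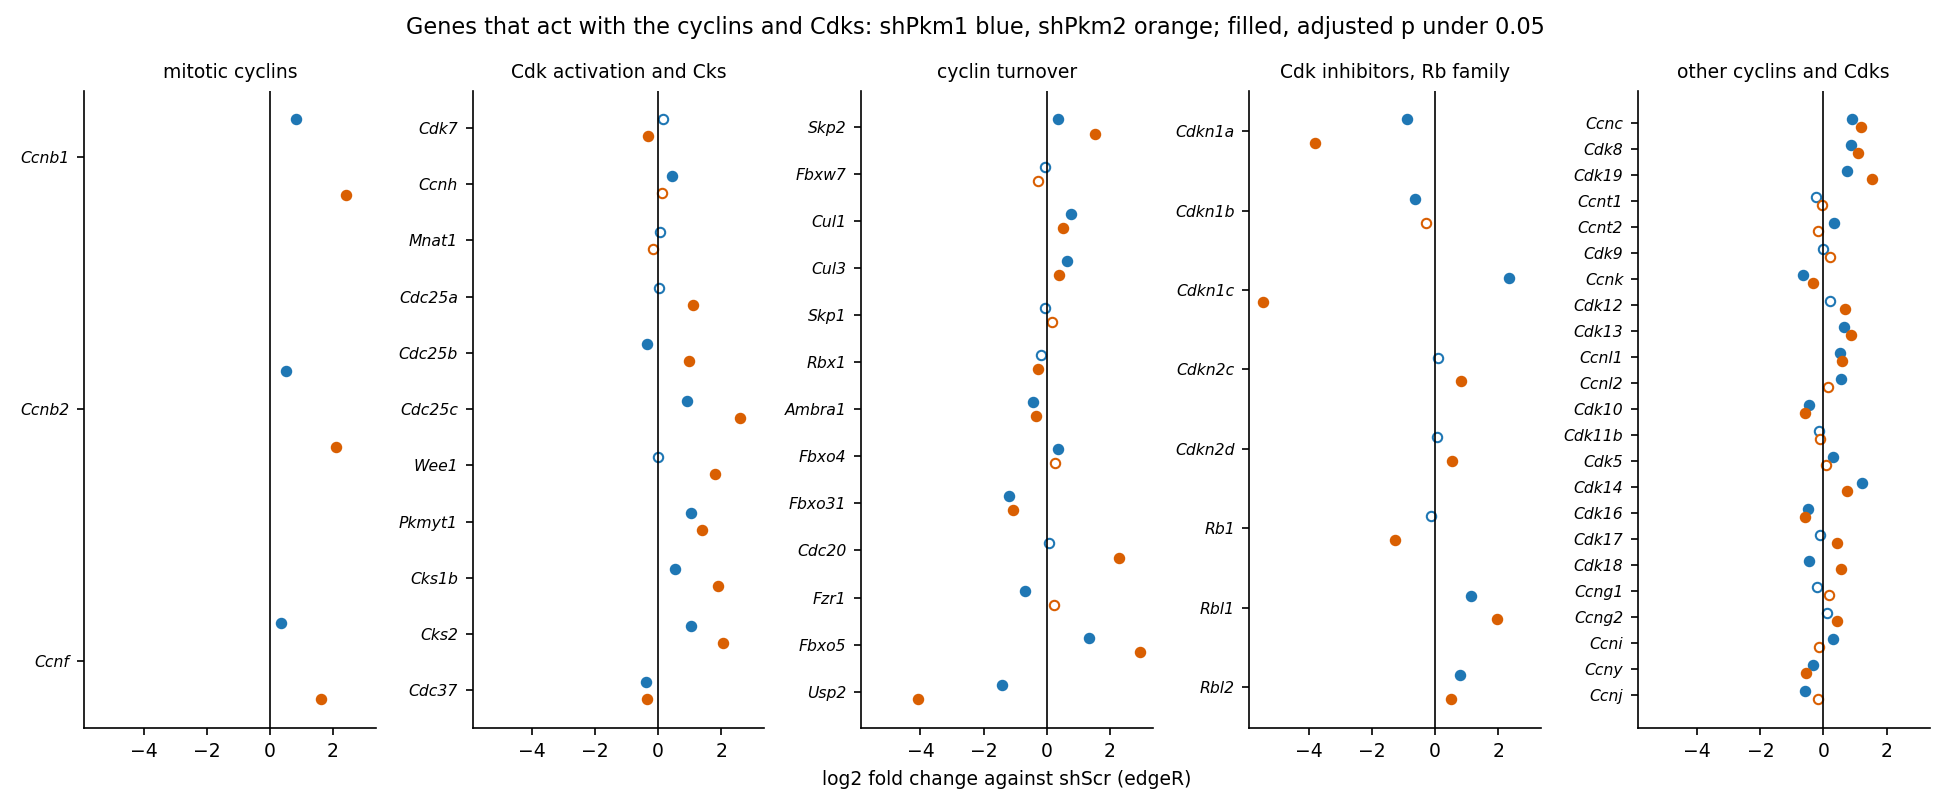
Log2 fold change against shScr (x axis) of each tested gene in the 5 lists of genes that act with the cyclins and Cdks, shPkm1 in blue and the shPkm2-labelled libraries in orange, filled where the adjusted p was under 0.05. Most orange points of the mitotic cyclins and of the genes acting on Cdks lie right of the blue ones, while those of Cdkn1c (-5.46, with its blue point at 2.34), Usp2 (-4.09) and Cdkn1a (-3.81) lie far left.

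The cyclins and Cdks of transcription and other processes gave the comparison outside the cell-cycle core. Of 23 such genes, 10 were higher and 6 lower in shPkm1, 10 were higher and 4 lower in the shPkm2-labelled libraries, and 7 were higher and 4 lower in the direct comparison, with medians of 0.11, 0.17 and 0.20. Over all genes 31.8% were higher and 31.4% lower, 33.9% and 34.2%, and 25.7% and 27.3% in these comparisons. The largest rises were those of Cdk14 (1.23) and Ccnc (0.92) in shPkm1, and of Cdk19 (1.55) and Ccnc (1.20) in the shPkm2-labelled libraries. Cdk19 and Ccnc both belong to the kinase module of the Mediator complex. The largest falls were those of Ccnk (-0.65) and Ccnj (-0.57) in shPkm1, and of Cdk10 (-0.58) and Cdk16 (-0.57) in the shPkm2-labelled libraries. All 4 of these calls were lost with limma on log2(TPM + 1), where Ccnk was -0.25 (adjusted p = 0.0556), Ccnj -0.11 (0.504), Cdk10 -0.12 (0.356) and Cdk16 -0.10 (0.474). The call of Ccnj was lost in 7 of 15 alternatives, also with DESeq2 (adjusted p = 0.0903), with library totals (0.125) and without shScr replicate 1 (0.0675), shPkm1 replicate 1 (0.0946) or shPkm1 replicate 2 (0.0850), and that of Cdk16 also with library totals (0.0593). Between the hairpin groups Cdk18 (1.03) and Cdk19 (0.80) were higher in the shPkm2-labelled libraries, and Ccnt2 (-0.50) and Cdk14 (-0.47) lower. No gene of this list reached the log2 fold change of Ccnd1, Ccne2 or Ccna2 in the shPkm2-labelled libraries against shScr, but Cdk19 (1.55), Ccnc (1.20) and Cdk8 (1.08) lay above the members Ccne1 (0.93) and Cdk4 (0.58).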

How the data were processed

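RNA of 6 C2C12 libraries was measured by sequencing. The deposited table gives, per the file headers, an estimated count, a TPM and an FPKM value for each of 57920 transcripts. The estimated counts were not all whole (48.0% to 50.7% of values per library were exactly whole, values of 0 included). The deposited TPM values were used as they stand and the deposited FPKM values were not used. The submitters' processing notes name HISAT, StringTie, Bowtie, RSEM and DESeq2 and the build mm10, with no roles. Read length and strandedness are not given in the sources used here. The 9 columns of authors' means were left out.

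Estimated counts were summed per NCBI gene (17558 genes, of which 113 without a symbol held at most 0.148% of counts) and rounded. Genes passing filterByExpr (minimum count 10, total 15) were tested with edgeR 4.0.16 in R 4.3.3 by the quasi-likelihood F-test with TMM scaling, 1 coefficient per group over all 6 libraries, two-sided, and Benjamini-Hochberg adjustment over 12643 genes at 0.05. The standard error is the log2 fold change over the root of F, and 95% intervals come from the same fit. The script was tested on simulated data. These totals leave counting error small for all members except Ccne2 in the control. Replicates correlated at 0.988 to 0.994 in log2 CPM. No libraries were identical, and every replicate pair differed by more than sampling noise (chi-square per degree of freedom 5.94 to 30.8, the largest in shScr).

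The members and the gene lists were chosen with earlier results of these data known. All members and Pkm were reported. From each further list up to 2 risen and 2 fallen genes per comparison were named, those with the largest change among called genes averaging 50 counts or more, and 3 similar genes per member. Ccnf, Rb1, Cdk8 and the marker genes of other cell types lie outside this rule and were named after their values were seen. Alternatives were DESeq2 1.42.0 (tool and size factors), library totals, other filters, only the groups compared, a replicate block, limma 3.58.1 on log2(TPM + 1) and log2(TPM + 0.1), and leaving out each library.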

Additional observations from a re-analysis of the deposited data

Results flagged for a closer look

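In 3 genes of the partner lists the hairpin groups went in opposite called directions against shScr, and the direct comparison by edgeR's quasi-likelihood test is the test of that difference. Cdkn1c, which encodes the p57 Cdk inhibitor, had 272 and 117 counts in shScr, 1147 and 1155 in shPkm1, and 8 and 3 in the shPkm2-labelled libraries. Its log2 fold change was 2.34 in shPkm1, -5.46 in the shPkm2-labelled libraries and -7.80 between them, and leaving out each library gave 1.79 to 3.17, -6.30 to -4.63 and -8.65 to -7.29, with every call kept. With limma on log2(TPM + 1) the second was -2.82. The control libraries differed from each other by more than those of either hairpin group in CPM (17.2 and 6.61, against 61.1 and 58.4 and 0.377 and 0.143). Cdc25b, a phosphatase that activates Cdks, was at 54.3 and 53.3 CPM in shScr, 42.9 and 41.6 in shPkm1 and 108 and 106 in the shPkm2-labelled libraries. Its log2 fold change was -0.35, 0.99 and, between the hairpin groups, 1.34. The fall in shPkm1 was not called with library totals (-0.15, adjusted p = 0.213) or without shPkm1 replicate 2 (-0.33, adjusted p = 0.0527). Its sign turned with limma on log2(TPM + 1) and log2(TPM + 0.1) (0.044 and 0.046, adjusted p = 0.759 and 0.757), so the opposite direction was not present on that scale. Cdk18, a kinase of the Pctaire group, was at 85.6 and 82.7 CPM in shScr, 60.3 and 61.2 in shPkm1 and 123 and 125 in the shPkm2-labelled libraries. Its log2 fold change was -0.47, 0.56 and, between the hairpin groups, 1.03. The fall in shPkm1 was not called with limma on log2(TPM + 1) (-0.05, adjusted p = 0.692). The rise in the shPkm2-labelled libraries was larger with library totals in place of TMM (0.89) and with limma on log2(TPM + 1) (0.99).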

How the results depend on the processing

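Over 15 alternatives, 434 of 450 recomputed log2 fold changes of the members kept their direction and their side of the threshold, 6 gained a call, 5 lost one and 5 changed sign, none of which had a call. The sign changes were all in shPkm1 against shScr: Ccne1 with limma on log2(TPM + 1) and log2(TPM + 0.1) (0.089 and 0.094), Cdk4 likewise (0.168 and 0.168), and Cdk1 without shScr replicate 1 (-0.068, with a range over the libraries left out up to 0.204). All 5 lost calls were those of Ccnd2 in the shPkm2-labelled libraries given with its values. Of the recomputed values of partners named in the text, over the comparisons where each had a call, 1099 kept their direction and call, 74 lost the call and 12 changed sign. Calls lost or turned were most frequent for Cdk7 in the shPkm2-labelled libraries against shScr (6 lost and 3 turned), Ccnh against shPkm1 (8 lost) and Ccnj in shPkm1 (7 lost). The signs that changed were those of Cdc37 with limma at either pseudocount (0.0062 and 0.0062 in shPkm1, 0.10 and 0.10 in the shPkm2-labelled libraries), Cdc25b in shPkm1 (0.044 and 0.046), and Cdk7 in the shPkm2-labelled libraries (0.118 and 0.135, and 0.016 with library totals) and Ccnk there (0.139 and 0.141, and 0.013 with library totals). Without shScr replicate 1, 5 members were called lower in shPkm1, and the count ran from 3 to 5 over the libraries left out. As shares of summed estimated counts, which do not allow for length, Ccnd1, Ccnd2 and Ccnd3 made up 1.53%, 1.90% and 96.6% of D cyclins in shScr, 15.2%, 1.71% and 83.1% in shPkm1, and 42.1%, 4.25% and 53.7% in the shPkm2-labelled libraries. The replicate numbers mark no shared origin in the labels, and replicate differences correlated at -0.02, 0.04 and 0.11 between groups. With a replicate block, 4 members were higher and 4 lower in shPkm1, 7 and 3 in the shPkm2-labelled libraries, and 8 and 1 in the direct comparison, and 7922, 8566 and 6682 of all genes were called. The block added the call of Ccne1 in shPkm1 (-0.30, adjusted p = 0.0342). DESeq2 called 7074, 7811 and 5751 genes. With 2 libraries per group, the spread rests on few degrees of freedom.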
